A study of Homo sapiens with 8 samples.

Results

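Guanylate-binding proteins (GBPs) are large GTPases of the dynamin superfamily whose genes sit side by side in a cluster. The rule took every gene of the deposited table whose symbol is GBP followed by 1 digit, and it found 6 of 16525 genes, namely GBP1, GBP2, GBP3, GBP4, GBP5 and GBP6. They were followed in RNA of the human beta-cell line EndoC-βH5, which was derived from fetal pancreas and serves as a model of the human insulin-producing cell. The 4 control libraries came from untreated cells, and the 4 cytokine libraries came from cells given a mix of 3 cytokines for 48 h, namely IL-1β, TNFα and interferon-γ, written IFNγ. All 8 libraries are of this 1 line, so they show no variation between donors.

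GBPs are textbook targets of IFNγ. The receptor of IFNγ works through the kinases JAK1 and JAK2, and its target genes often carry short promoter elements called GAS and ISRE, the second of which is bound by IRF1. The proteins bind and hydrolyse GTP, assemble on the membranes of bacteria and parasites that enter the cell, and help caspase-4 to sense bacterial lipopolysaccharide. GBP1, GBP2 and GBP5 carry a lipid (prenyl) group at their end that anchors them in membranes, and the other 3 do not.

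The 6 genes lie on chromosome 1 (GRCh38, coordinates of GENCODE 29) within 379.8 kb, and all are annotated as protein coding. From left to right they are GBP3 (ENSG00000117226, chr1:89006666-89022894), GBP1 (ENSG00000117228, chr1:89052319-89065360), GBP2 (ENSG00000162645, chr1:89106132-89150456), GBP4 (ENSG00000162654, chr1:89181148-89198932), GBP5 (ENSG00000154451, chr1:89258950-89272804) and GBP6 (ENSG00000183347, chr1:89364058-89386461). GBP6 is on the plus strand and the other 5 are on the minus strand. The pseudogene GBP1P1 (ENSG00000225492, chr1:89407679-89426243, plus strand) is also in the table and was followed beside them.

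RefSeq promoters on GRCh38.p14, each running from 250 bases before to 50 bases after the start of a gene, were found for 4 of the 6 genes (GBP1, GBP3, GBP4 and GBP6); GBP2 and GBP5 had no entry in the table used. Both strands were searched for a GAS element (TTCNNNGAA), for the ISRE core (GAAANNGAAA) and for a kappaB site, the element bound by NF-kB. The ISRE core occurred in 3 of the 4 promoters and in 3.57% of all 35116 promoters, GAS in GBP3 and in 7.66% of all, and the kappaB site in GBP4 and in 11.3% of all. GBP6 held none of these letters in its window. Variant forms of the elements were not searched, so a promoter without a match, as that of GBP1 for GAS, may still hold one. The 3 promoters with an ISRE core are shown because their genes are the members for which such an element could be placed. Each stretch is 84 bases of the minus strand, 5′ to 3′, with the matched elements in capitals.
GBP1, chr1:89065312-89065395: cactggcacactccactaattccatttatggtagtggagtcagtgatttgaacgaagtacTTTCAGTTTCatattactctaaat
GBP3, chr1:89022841-89022924: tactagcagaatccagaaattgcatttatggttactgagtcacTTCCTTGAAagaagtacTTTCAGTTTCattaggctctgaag
GBP4, chr1:89198923-89199006: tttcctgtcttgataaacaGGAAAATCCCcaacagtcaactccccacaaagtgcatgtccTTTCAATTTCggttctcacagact

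In GBP1 the ISRE core ran from base -127 to base -118 relative to the RefSeq start. In GBP3 the GAS element ran from -15 to -7 and the ISRE core from 3 to 12. In GBP4 the kappaB site ran from -45 to -36 and the ISRE core from -4 to 6. The RefSeq starts of GBP1 and GBP3 lie inside the GENCODE spans given above, and so do their ISRE cores. Positions relative to a start therefore depend on the annotation, and those of GBP1 and GBP3 are not compared. Within the stretches of 84 bases shown, GBP1 and GBP3 shared a run of 19 bases around their ISRE core, GAAGTACTTTCAGTTTCAT. GBP4 shared no run longer than 6 bases with either stretch. These matches describe the letters of the reference, not binding in these cells.

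The samples have between 36577438 and 40117636 reads on the listed genes, and 1 read is worth 0.0196 to 0.0214 counts per 1000000 reads (CPM), so a count of 0 allows up to 3 reads, or 0.0587 to 0.0641 CPM. The libraries of each condition are called A, B, C and D after the first part of their column names. A and B share the ending of their names, C and D share another, and no label says what the endings stand for. Nothing says that the libraries came from separate cultures, so p-values measure the spread between these libraries only. All 8 markers of beta cells on the list were present in the table, with a summed level of 23171 to 35812 CPM in the control and 28650 to 52410 CPM in the cytokine libraries. CHGA and IAPP made up most of that sum, and 3 of the 8 were called lower, namely MAFA (-2.27, adjusted p = 2.12e-05), SLC30A8 (-1.20, adjusted p = 1.78e-04) and PDX1 (-0.78, adjusted p = 4.51e-04). None of 7 immune and none of 3 endothelial markers was among the genes analysed, and the 2 listed of 3 fibroblast and stellate cell markers summed to 3.56 to 5.30 CPM in the control and 4.29 to 6.41 CPM in the cytokine libraries.

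GBP transcripts went from traces in untreated cells to abundant messages in cytokine-treated cells. The summed level of the 6 genes was 2.76, 4.40, 0.219 and 0.919 CPM in the control libraries A to D and 756, 780, 780 and 860 CPM in the cytokine libraries. GBP1 supplied most of it in the cytokine libraries. Each of the 6 genes passed the test (limma, absolute log2 fold change above 0.5 and adjusted p below 0.05), as did 9.52% of all genes in the upward direction. For each of the 6 the lowest cytokine library lay above the highest control library, which held for 10.8% of all genes. The deposited table keeps a gene if 4 or more samples exceed 0.5 CPM, and none of the 6 was above 0.5 CPM in all 4 control libraries. They entered the table through their cytokine libraries, and among the 1408 listed genes above 0.5 CPM in fewer than 4 control libraries 323 were called higher. Those 1408 include 371 genes above 0.5 CPM in fewer than 4 of the 8 libraries used. These 371 did not enter through the cytokine libraries alone, so 323 of 1408 is no exact base for the 6 genes. RNA from whole cultures cannot tell fewer cells of a type from less RNA per cell.

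**Figure D1:**
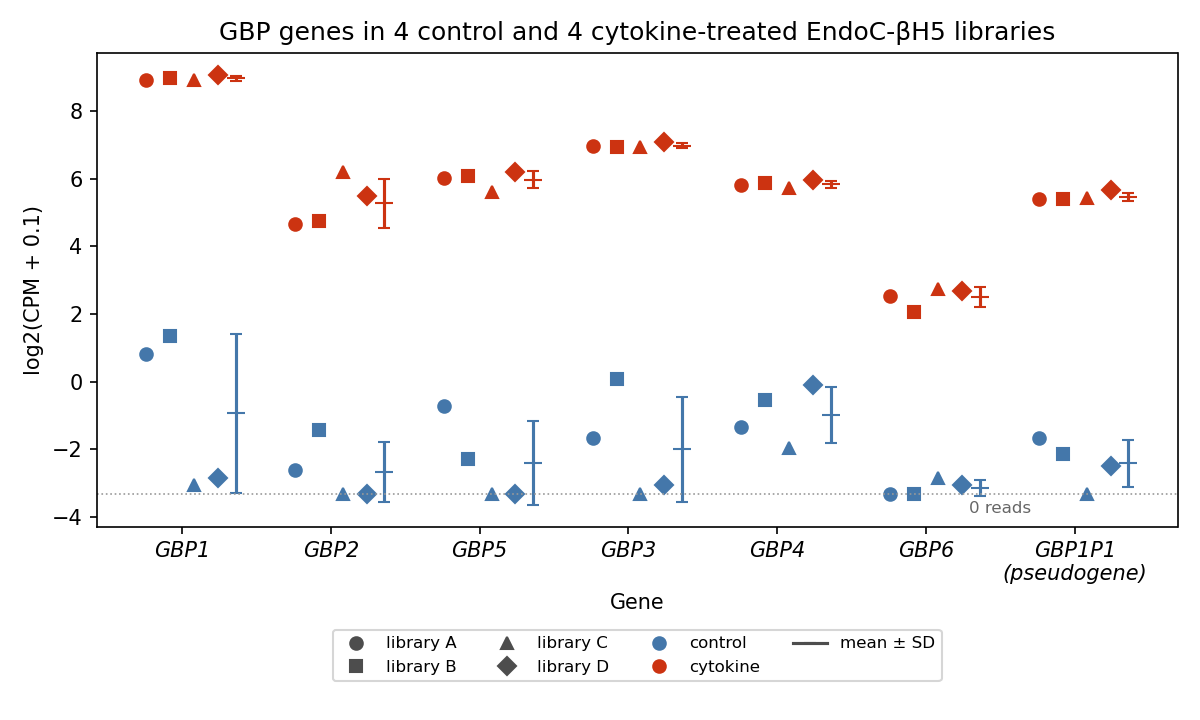
Level of each GBP gene and of the pseudogene GBP1P1 as log2(CPM + 0.1), with 1 point per library, blue for control and red for cytokine, and the mean ± SD beside the points (n = 4). All cytokine points lie above all control points of the same gene, and the dotted line is the value of 0 reads, reached by control libraries of GBP2, GBP3, GBP5, GBP6 and GBP1P1.

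GBP1, the member that starts the GBP coat on cytosolic bacteria, had the largest log2 change of the 6 genes with limma, whereas with edgeR GBP2 (9.10) stood above GBP1 (9.0). Its level was 1.67, 2.48, 0.0199 and 0.0391 CPM in control libraries A to D, which are 78, 117, 1 and 2 reads. In the cytokine libraries it was 480, 499, 478 and 540 CPM, or 22563 to 26859 reads. Controls A and B were far above controls C and D, whereas the cytokine libraries were alike on the CPM scale, at 499 ± 28.5 CPM (SD, n = 4). On the log2(CPM + 0.1) scale the change was 9.89 (SE 0.88, adjusted p = 1.40e-05). The ratio of pooled reads, each over the total reads of its libraries, was 493 with a 95% counting interval of 429 to 570, which covers counting error only.

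GBP2, a prenylated member that lowers the activity of the protease furin, had 3, 13, 0 and 0 reads in control libraries A to D (0.0641, 0.275, 0 and 0 CPM). The cytokine libraries reached 25.1, 26.7, 73.1 and 44.6 CPM. C was the highest and A and B were the lowest, so GBP2 had the widest spread of the 6 genes relative to its mean in cytokine-treated cells (42.4 ± 22.3 CPM, SD, n = 4). The log2 change was 7.94 (SE 0.46, adjusted p = 4.94e-07). Of the 100-base windows of GBP2 transcripts, 8.42% are identical to a window of GBP7, whose span overlaps that of GBP2 and which is not analysed here, so reads in that stretch cannot be assigned to 1 gene.

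GBP5, the prenylated member linked to the NLRP3 inflammasome, had 24, 5, 0 and 0 reads in control libraries A to D (0.513, 0.106, 0 and 0 CPM). It reached 64.1, 67.2, 48.6 and 72.8 CPM in the cytokine libraries, with C the lowest. The log2 change was 8.38 (SE 0.50, adjusted p = 5.64e-07). No 100-base window of GBP5 came within 2 mismatches of another GBP gene.

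Among the members without a prenyl group, GBP3, which joins GBP1 on bacterial surfaces, stood out by its level. Its control libraries held 10, 45, 0 and 1 reads (0.214, 0.952, 0 and 0.0196 CPM), again with A and B on top. The cytokine libraries were close together at 125, 124, 121 and 135 CPM (126 ± 5.97 CPM, SD, n = 4). The log2 change was 8.97 (SE 0.60, adjusted p = 1.45e-06).

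GBP4, another partner of GBP1 on bacterial surfaces, was spread more evenly over the control libraries. It had 14, 28, 8 and 43 reads there (0.299, 0.593, 0.159 and 0.841 CPM), and here D was the highest and C the lowest. The cytokine libraries reached 56.0, 58.9, 52.3 and 61.7 CPM, a log2 change of 6.81 (SE 0.34, adjusted p = 1.38e-07). Its ratio of pooled reads was 120 with a counting interval of 98.0 to 149, from 93 control reads in all.

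GBP6, the member on the opposite strand, was the rarest in cytokine-treated cells. Its control libraries held 0, 0, 2 and 1 reads, which is within the limit of a count of 0, and its cytokine libraries 5.64, 4.08, 6.58 and 6.31 CPM (191 to 327 reads). The log2 change was 5.64 (SE 0.26, adjusted p = 8.37e-08). From 3 control reads in all, the ratio of pooled reads was 370 with a counting interval of 126 to 1796, so it cannot be placed below or above the ratios of the other members.

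The pseudogene GBP1P1 moved with the family. Its control libraries held 0.214, 0.127, 0 and 0.0782 CPM and its cytokine libraries 41.8, 42.2, 42.7 and 50.2 CPM, a log2 change of 7.87 (SE 0.31, adjusted p = 2.41e-08). Reads of GBP1P1 were 8.71%, 8.45%, 8.93% and 9.29% of the reads of GBP1 in cytokine libraries A to D. Of the 100-base windows of GBP1P1, 2.34% are identical to GBP1 and 16.8% are within 2 mismatches of it, and of the windows of GBP1 itself 1.09% and 7.84%. Most of the sequence of either gene is therefore distinct at the read length used, but a part of the GBP1P1 reads could be reads of GBP1 and the share was not tested.

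The small amount of GBP message in untreated cells was not spread evenly over the libraries. In controls A and B the 6 genes had 129 and 208 reads, and in controls C and D 11 and 47 reads. GBP1 had 195 reads in A and B together against 3 in C and D. A contrast of controls A and B with controls C and D within the fit of all 8 libraries, chosen after seeing the data, called 4 of the 6 genes higher in A and B, as against 4.28% of all genes. GBP1 was higher by 4.05 on the log2 scale (SE 0.19, adjusted p = 2.50e-06), GBP3 by 2.39 (SE 0.42, adjusted p = 0.00498), GBP5 by 1.83 (SE 0.42, adjusted p = 0.0127) and GBP2 by 1.31 (SE 0.38, adjusted p = 0.0326). Each SE pools the spread of control and cytokine libraries, so it does not measure that of the control libraries alone. The size for GBP1 depends on how the 3 reads of C and D are treated, at 2.26 with a pseudocount of 0.5, 1.56 with a pseudocount of 1 and 6.18 with edgeR, and each of these was called. GBP4 (0.09, adjusted p = 0.912) and GBP6 (-0.37, adjusted p = 0.497) were not called. GBP5 and GBP2 lost their calls at a pseudocount of 0.5 (adjusted p = 0.0940 and 0.274) and without the intensity trend (0.0534 and 0.0729). GBP5 also lost its call without control A (1.04, adjusted p = 0.107) or control C (1.83, adjusted p = 0.0577). GBP2 also lost its call without any 1 of the 4 control libraries (adjusted p = 0.0554 to 0.177) and without cytokine library A (0.0614) or B (0.0612). GBP4 was called without control D (1.02, adjusted p = 0.0396).

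The reads in controls A and B stood at differing shares of those of the paired cytokine libraries. Control reads were taken as a share of the reads of the cytokine library of the same letter. In A they were 0.346% for GBP1, 0.254% for GBP2, 0.171% for GBP3, 0.533% for GBP4 and 0.797% for GBP5. In B they were 0.50% for GBP1, 1.04% for GBP2, 0.778% for GBP3, 1.01% for GBP4 and 0.159% for GBP5. Some of these shares rest on few control reads, such as 3 for GBP2 in A and 5 for GBP5 in B. For GBP6 the share was 0 in both, and for GBP1 it was 0.00421% in C and 0.00745% in D. A carry-over of cytokine-treated RNA into the control libraries was not tested beyond these values.

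The size of the change differed between the pairs. For GBP1 the log2 changes in pairs A, B, C and D were 8.09, 7.60, 11.96 and 11.92. GBP3 changed by 8.64, 6.88, 10.25 and 10.14 and GBP2 by 7.26, 6.16, 9.52 and 8.80. GBP5 followed with 6.71, 8.35, 8.93 and 9.51. On this scale both values of C and D lay above both of A and B in these 4 genes. Controls C and D held at most 2 reads of any of them, so the size of these changes depends on the pseudocount. For GBP4 (7.13, 6.41, 7.66 and 6.04) and GBP6 (5.84, 5.39, 5.58 and 5.74) they did not.

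**Figure D2:**
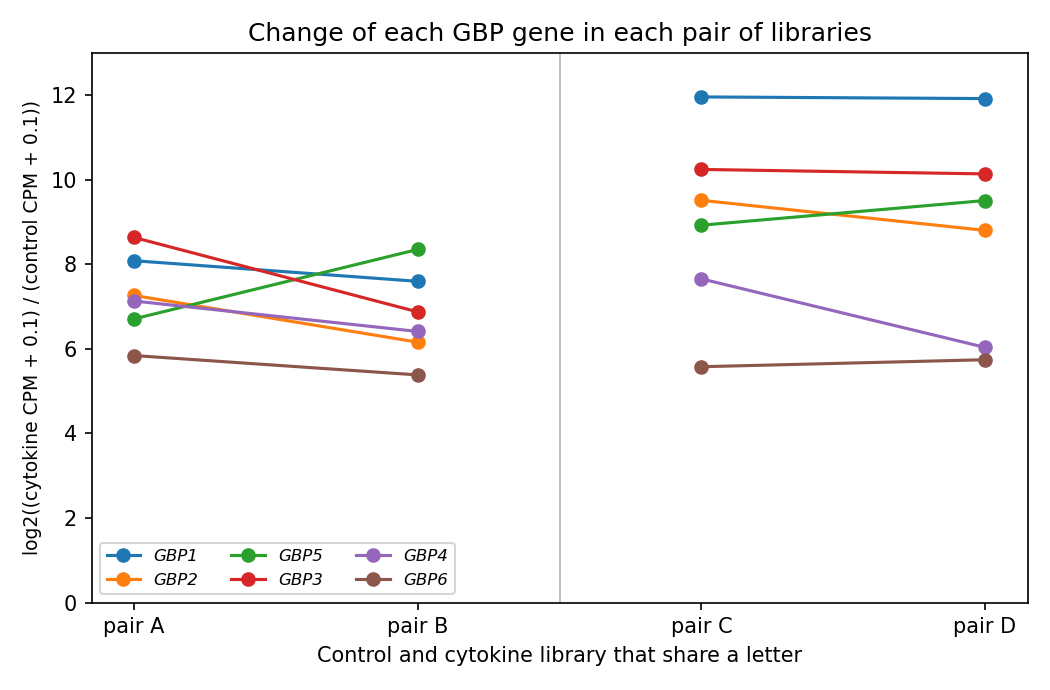
Change of each GBP gene between the control and the cytokine library that share a letter, as the difference of log2(CPM + 0.1); lines join A with B and C with D. GBP1, GBP2, GBP3 and GBP5 lie higher in C and D than in A and B, whereas the pairs of GBP4 and GBP6 mix.

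The difference itself was tested as an interaction of treatment with the name ending. That test was set up because earlier results of these data had shown such a difference for GBP1, so its call of GBP1 is no independent support. It called 5 genes or 0.0303% of all. GBP1 was the member among them and ranked first by p, with a change larger in C and D by 4.10 on the log2 scale (SE 0.26, adjusted p = 8.77e-05). The difference was 2.31 with a pseudocount of 0.5, 1.62 with a pseudocount of 1 and 6.15 with edgeR, and it was called in each. It rests on 3 control reads in C and D, and between cytokine libraries A and B and cytokine libraries C and D GBP1 differed by -0.05 with limma. The other 4 were BST2 (4.17), CXCL10 (4.29), NFKB2 (1.52) and NFKBIA (1.51), of which the last pair is named here because it passed, after its values were seen. For GBP2 (2.45, SE 0.54, adjusted p = 0.623), GBP3 (2.44, SE 0.59, adjusted p = 0.999) and GBP5 (1.69, SE 0.59, adjusted p = 0.999) the interaction was not called, and that of GBP5 was 0.51 at a pseudocount of 0.5. Without control A, GBP3 was also called (3.31, adjusted p = 0.00519). The ratio of pooled reads of GBP1 was 236 (counting interval 205 to 273) in A and B, and 17194 from 3 control reads (5883 to 83380) in C and D. GBP3 had a ratio of 212 (163 to 282) in A and B. For GBP2 and GBP5 in C and D, where no control read was seen, the ratio of mean CPM was at least 994 and at least 1025, taking 3 reads per control library as the limit of a count of 0. GBP4 kept about the same ratio, 129 (95 to 179) in A and B and 113 (86.0 to 152) in C and D.

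In cytokine-treated cells the 6 genes were compared per exon length as transcripts per 1000000 (TPM). GBP1 led with 358, 375, 428 and 506 TPM in cytokine libraries A to D, and its mean of 417 ± 66.4 TPM placed it 172nd of the 16167 genes with a length. In TPM, unlike in CPM, both C and D lay above both A and B for GBP1. GBP3 followed with 108, 108, 126 and 147 TPM. GBP4 came next with 34.0, 36.0, 38.1 and 47.1 TPM. GBP5 (29.3, 30.9, 26.6 and 41.8 TPM) and GBP2 (14.9, 15.9, 52.0 and 33.2 TPM) came after it, and GBP6 was last with 7.03, 5.11, 9.85 and 9.88 TPM. The ranges of GBP4 and GBP5 overlapped, although GBP4 was higher in each of the 4 libraries, and those of GBP5 and GBP2 overlapped with GBP5 higher in 3 of 4. No other neighbours in this order overlapped. The order below GBP3 depends on the length used. With the longest coding transcript as length, chosen after seeing the data, GBP2 (7.59% of the summed level) and GBP5 (5.40%) stood above GBP4 (3.75%).

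**Figure D3:**
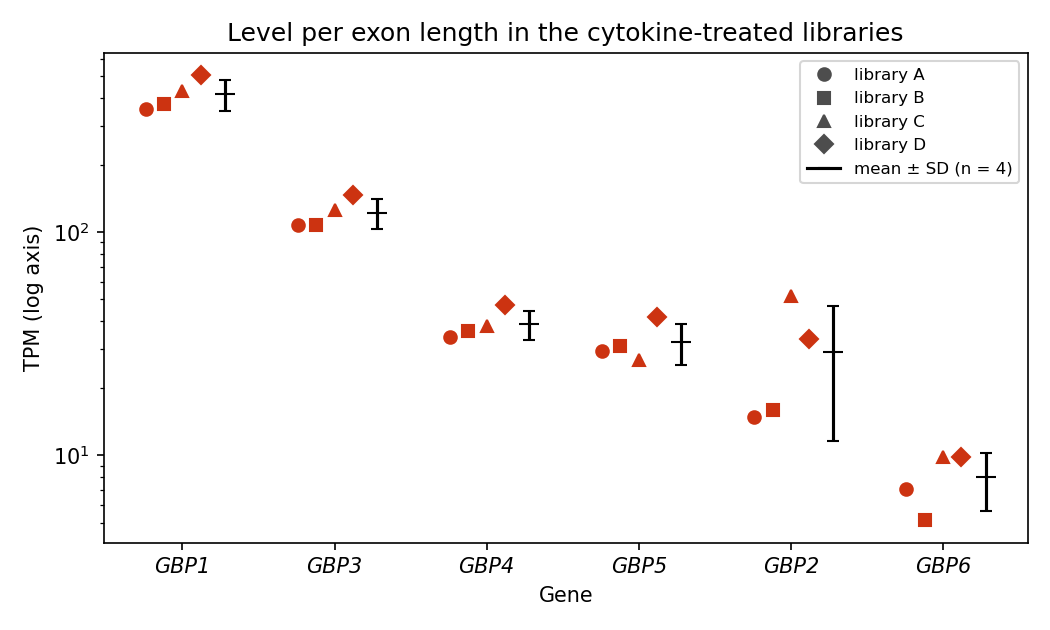
Level per exon length (TPM, log axis) of the 6 GBP genes in the 4 cytokine libraries, ordered by mean, with the mean ± SD in black. GBP1 and GBP3 lie apart above the rest, and the points of GBP4, GBP5 and GBP2 overlap.

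GBP1 made up 64.5 ± 1.20% (SD, n = 4) of the summed TPM of the 6 genes, with 62.9% as the lowest and 65.7% as the highest library. GBP3 made up 18.9 ± 0.468%, GBP4 6.02 ± 0.308%, GBP5 5.00 ± 0.722% and GBP6 1.22 ± 0.231%. The share of GBP2 was 2.70%, 2.80%, 7.65% and 4.24% in libraries A to D. Its SD of 2.31 percentage points was the largest of the 6 genes. In the control libraries the mean levels were 0.712 TPM for GBP1, 0.30 for GBP4, 0.233 for GBP3, 0.0641 for GBP5, 0.0455 for GBP2 and 0.0213 for GBP6, and these rest on the few reads given above.

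GBP2 was also the member with the largest difference between cytokine libraries A and B and cytokine libraries C and D. It was lower in A and B by 1.14 on the log2 scale (-1.14, SE 0.38, adjusted p = 0.0782) and was not called by limma, while edgeR called it (-1.11, adjusted p = 0.0325), as did limma at a pseudocount of 0.5 (-1.12, adjusted p = 0.0211) and of 1 (-1.11, adjusted p = 0.0136). Limma on log2(CPM + 0.1) also called it without control A (-1.14, adjusted p = 0.0474) or without cytokine library D (-1.49, adjusted p = 0.0340). The contrast called 9.04% of all genes in either direction with limma, and 4.18% as lower in A and B with edgeR. GBP1 (-0.05), GBP3 (-0.04), GBP4 (0.02), GBP5 (0.14) and GBP6 (-0.42) were not called by either tool. IRF1 had its highest cytokine levels in the same 2 libraries, with 977 CPM in C and 755 CPM in D against 651 CPM in A and 635 CPM in B. So had TAP1, a transporter of antigenic peptides, with 1659 CPM in C, 1317 CPM in D, 1170 CPM in A and 1151 CPM in B. TAP1 was picked as the gene of most like pattern to GBP2. Other genes of the IFNγ signalling list below went either way. STAT2, IRF9, SOCS1, PIAS1 and RELA were higher in both A and B than in C and D, whereas STAT3, IRF2 and IRF8, among others, were higher in C and D. A link of any of these genes with GBP2 was not tested.

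The IFNγ signalling list reported here held 17 genes, all present in the table. Of these, 11 were called higher, none lower and 6 were not called, and the median log2 change was 1.26 beside -0.17 over all genes, of which 9.52% were called higher and 17.5% lower. The receptor chains IFNGR1 (26.2 to 31.7 CPM in control and 33 to 34.6 CPM in cytokine libraries) and IFNGR2 and the kinase JAK1 were not called. JAK2, the second kinase, rose by 3.72 (SE 0.15). STAT2, a transcription factor of interferon signalling, went from 106, 94.6, 61.4 and 91.0 CPM to 451, 456, 213 and 381 CPM, with C the lowest in both conditions, a log2 change of 2.05 (SE 0.25, adjusted p = 1.50e-04). STAT3, a transcription factor of many cytokine receptors, rose by 1.92 (SE 0.17, adjusted p = 1.33e-05). IRF1 rose from 10.3 to 12.8 CPM in controls to 635 to 977 CPM, a log2 change of 6.03 (SE 0.15, adjusted p = 8.74e-10). SOCS1, which shuts off JAK kinases, rose by 5.62 (SE 0.21, adjusted p = 1.74e-08). The other called genes were IRF2, IRF8, IRF9, SOCS3, PTPN2 and RELA, with changes from 0.52 to 4.55, and PTPN11, PIAS1 and NFKB1 were the remaining genes not called. Between controls A and B, which had the most GBP1, and controls C and D, IRF1 differed by 0.19 on the log2 scale (adjusted p = 0.359) and was not called. STAT2 (0.42, adjusted p = 0.229), STAT3 (-0.42, adjusted p = 0.0564) and SOCS1 (0.31, adjusted p = 0.375) were not called either. IRF9 stood at 2.95, 2.82, 0.936 and 1.49 CPM in controls A to D, with A and B on top.

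The partner list held 17 genes whose products modify GBPs or act with them, 12 of them in the table. CASP1, CASP5, AIM2, NLRP3 and IRGM are not analysed here. Of the 12, 6 were called higher, none lower and 6 were not called, with a median log2 change of 0.52, beside 9.52% of all genes called higher. With TMM scaling 7 of the 12 were called higher, beside 2154 of all 16525 genes. The enzymes that attach and finish the prenyl group formed most of those not called. FNTA (0.42, adjusted p = 0.0269) missed the fold threshold alone, its libraries did not overlap, and it was the gene added with TMM scaling. FNTB (-0.11), PGGT1B (-0.22), RCE1 (0.03) and ICMT (-0.36, SE 0.22, adjusted p = 0.227) were below the thresholds, and so was FURIN, the protease held back by GBP2 and GBP5 (0.04, SE 0.13, adjusted p = 0.844). CASP4, the lipopolysaccharide sensor recruited by GBP1, rose from 2.35, 4.02, 4.56 and 5.69 CPM to 46.0, 47.2, 48.1 and 57.0 CPM, a log2 change of 3.61 (SE 0.23, adjusted p = 1.11e-06). GSDMD, the pore-forming substrate of CASP4, rose by 1.86 (SE 0.10). APOL3, a lipid-binding protein that acts on bacteria after GBP1, went from 0.684, 0.127, 0.0995 and 0.117 CPM to 12.1, 14.2, 16.2 and 15.6 CPM, a log2 change of 5.62 (SE 0.40, adjusted p = 2.48e-06). RNF213, a ubiquitin ligase that marks lipopolysaccharide, rose by 2.82 (SE 0.17, adjusted p = 6.02e-07). The inflammasome adaptor PYCARD (0.95) and the kinase PIM1 (0.62), which holds GBP1 in the cytosol, rose less.

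Of 19 other large GTPases, 17 were in the table (IRGM and EHD2 are not analysed here). Of these, 5 were called higher, 1 lower and 11 were not called, with a median log2 change of 0.08. Over all genes 9.52% were called higher and 17.5% lower. With TMM scaling 7 of the 17 were called higher, EHD1 and IRGQ being added, beside 2154 of all 16525 genes called higher and 1933 lower. MX1, an antiviral dynamin relative, rose from 5.20 to 6.88 CPM in controls to 119 to 133 CPM, a log2 change of 4.35 (SE 0.13, adjusted p = 2.28e-09). MX2 (0.71), EHD3 (2.24) and EHD4 (0.51) rose too. GVINP1, a pseudogene of the giant interferon-induced GTPases, had no read in any control library and 0.724, 0.833, 0.242 and 0.723 CPM in the cytokine libraries, which is at least 10.2-fold higher. DNM1, the dynamin of endocytosis that led this list in level, fell by 0.86 (SE 0.12, adjusted p = 2.83e-04) from 335 to 401 CPM to 180 to 212 CPM. DNM2 (-0.06, adjusted p = 0.708) was not called and its sign turned under TMM scaling (0.09). MFN2, which fuses mitochondria, was not called either (0.14, adjusted p = 0.368).

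**Figure D4:**
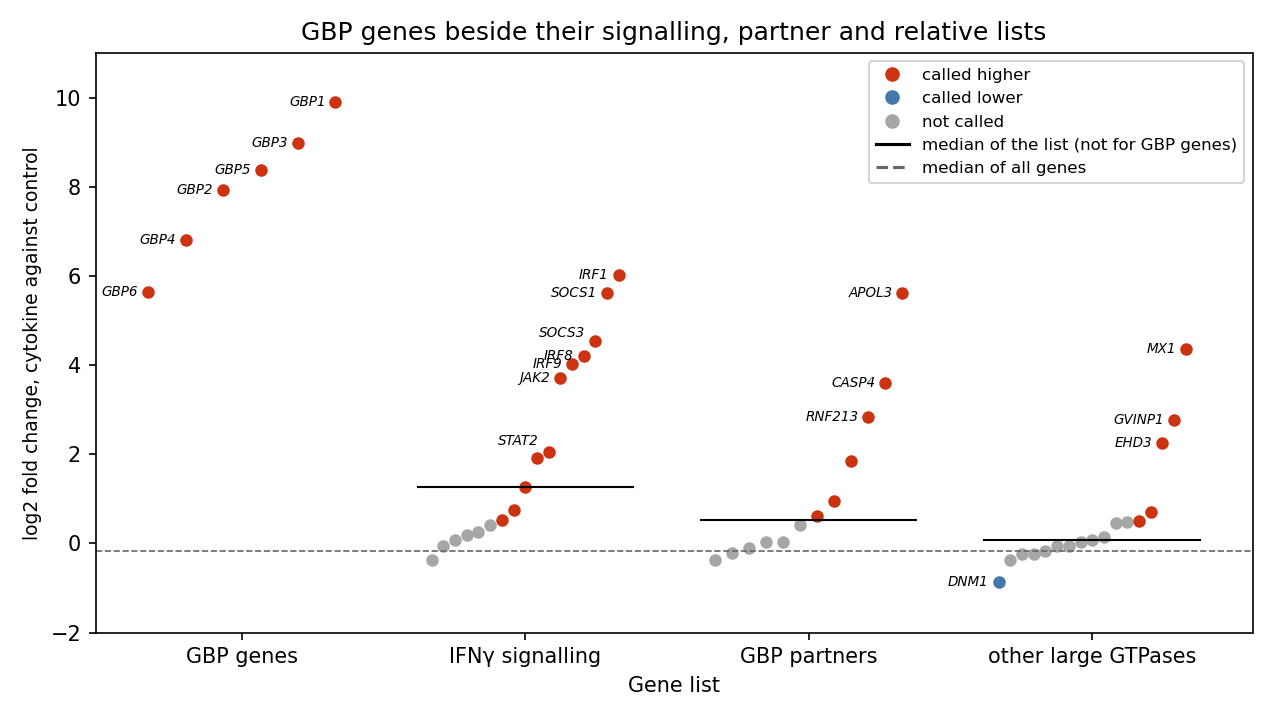
Log2 fold change of each gene (limma on log2(CPM + 0.1), 4 cytokine against 4 control libraries) for the 6 GBP genes and the 3 lists, with red for called higher, blue for called lower and grey for not called; black lines are list medians and the dashed line is the median of all genes, -0.17. The GBP genes lie between 5.64 and 9.89, IRF1 is the highest signalling gene and DNM1 is the gene called lower.

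Within 1000000 bases of GBP3 and GBP6, 12 other genes were in the table, of which 4 were called higher, 1 lower and 7 were not called, beside 9.52% higher and 17.5% lower over all genes. With TMM scaling 6 were called higher, GTF2B and PKN2 being added, beside 2154 of all 16525 genes. The pseudogenes GBP1P1, next to the cluster, and PTGES3P1, inside it, had the largest rises of the 12. PTGES3P1 lies on the minus strand, 1365 bases past the annotated end of GBP2. It had no read in any control library and 19, 19, 72 and 47 reads in cytokine libraries A to D, which is at least 13-fold higher. Those reads were 1.61%, 1.52%, 1.98% and 2.12% of the reads of GBP2 in the same libraries. Whether they come from a transcript of its own or from GBP2 transcripts that run on was not tested.

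Next to the cluster, RBMXL1, the nearest protein-coding gene on the side of GBP3, rose by 0.78 (SE 0.17, adjusted p = 0.00653), from 5.21 to 7.42 CPM to 9.42 to 13.2 CPM. It lies in the span of KYAT3 on the same strand, and KYAT3 rose by 0.54 (SE 0.13, adjusted p = 0.00811), so the counts of both are uncertain where they overlap. On the other side LRRC8B, a subunit of the volume-regulated anion channel, was not called (0.30, adjusted p = 0.297). Its relative LRRC8D fell by 0.75 (SE 0.17, adjusted p = 0.00669), from 13 to 20.8 CPM to 8.24 to 10.1 CPM.

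**Figure D5:**
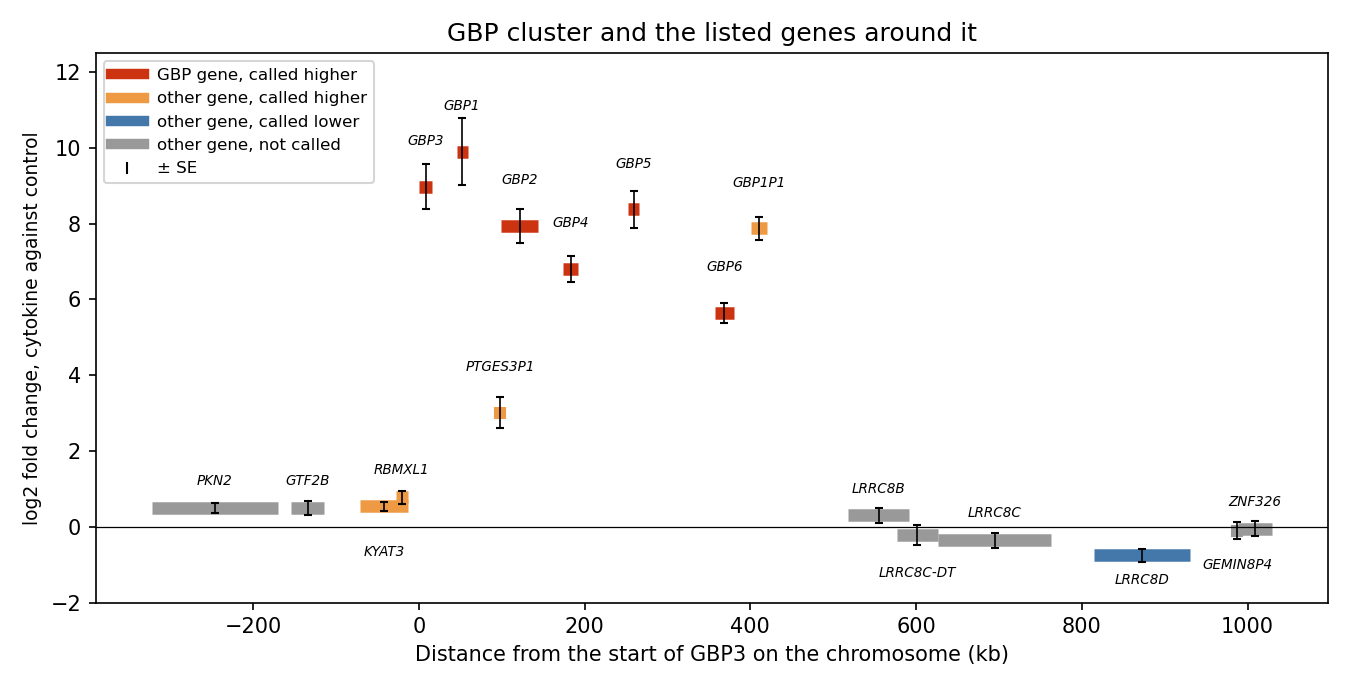
Log2 fold change (± SE) of the listed genes around the GBP cluster against their distance in kb from the left end of GBP3; bar length is the span of the gene, and PTGES3P1 and GEMIN8P4, too short to see, have a square. The 6 GBP genes and GBP1P1 lie between 5.64 and 9.89, PTGES3P1 at 3.00, and the genes on either side between -0.75 and 0.78.

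For each member the 3 genes of most like pattern were found by the Euclidean distance between log2(CPM + 0.1) profiles over the 8 libraries, each centred on its mean. GBP1 was nearest to CXCL10 (1.15), BST2 (1.43) and ICAM1 (2.90). CXCL10, a chemokine, had 1.0, 1.55, 0.0398 and 0 CPM in control libraries A to D, and BST2, a membrane tether of viruses, had 1.05, 1.48, 0.0398 and 0.0587 CPM, so both shared the uneven baseline of GBP1. ICAM1, an adhesion molecule, was also the nearest gene to GBP3 (1.25) and to GBP5 (1.66). GBP3 was further followed by HLA-B (1.48) and LGALS17A (1.73), and GBP5 by CXCL9 (1.85) and IFIT3 (1.90).

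GBP2 was nearest to the peptide transporter gene TAP1 (0.953), the heat-shock gene HSPA6 (1.31) and the immunoproteasome gene PSMB9 (1.41). GBP4 was nearest to NUGGC (0.814), XAF1 (1.32) and ETV7 (1.43). GBP6 was nearest to WARS1 (0.701), DDX60 (0.806) and IRF1 (0.885). In the contrast of controls A and B with C and D, CXCL10 (3.51), BST2 (3.18) and CXCL9 (2.41) were also called higher. So were LGALS17A (1.98), IFIT3 (1.81), ICAM1 (1.67), HLA-B (1.42), PSMB9 (1.25), HSPA6 (1.23) and TAP1 (1.04). NUGGC (-0.38), XAF1 (0.24), ETV7 (0.24), WARS1 (0.09), DDX60 (0.02) and IRF1 (0.19) were not called. These genes were picked for like patterns over the same libraries, so this is no independent support. The distances depend on the pseudocount where control reads are few, as for GBP1, GBP2, GBP3, GBP5 and GBP6. The change of GBP6 was 5.64 with limma and 8.45 with edgeR. WARS1, at 75.1 to 104 CPM in controls, changed by 5.60 with limma. Between members the distances ran from 2.26 for GBP2 and GBP3 to 7.50 for GBP1 and GBP6. The named genes were picked as the nearest of all other genes with a symbol. Their distances are therefore small by selection and cannot be set against those between members.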

How the data were processed

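RNA of 4 control and 4 cytokine-treated libraries was sequenced by the authors with a strand-specific kit, aligned to GRCh38 with TopHat2 2.1.1 and counted with HTSeq 0.9.1, and the deposited table gives CPM of genes above 0.5 CPM in at least 4 samples. Another 4 columns were not used. All values were whole multiples of 1 read within 0.01, which gave the reads. TPM used exon lengths of GENCODE 29 (16167 of 16525 genes).

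Changes were tested in R 4.3.3 by limma 3.58.1, with a trend of the variance on intensity and without a block. Its input was log2(CPM + 0.1), and p-values were adjusted over 16525 genes by the Benjamini-Hochberg method. Alternatives were TMM scaling, pseudocounts of 0.5 and 1, a filter at a mean of 1 CPM, no trend, edgeR 4.0.16 and DESeq2 1.42.0 on the reads, each library left out, a replicate block and a term for the name ending. The study's methods used edgeR. As a check of the pairing by the first part of the column names, deviations from group means correlated across genes by 0.457, 0.504, 0.748 and 0.681 in pairs A to D. Control A with cytokine B gave 0.447 and control B with cytokine A 0.489, so this check does not tell A from B. Scripts were tested on simulated data. Tables and figures used Python 3.11.15, pandas 2.3.3, numpy 2.4.6, scipy 1.17.1 and matplotlib 3.10.9.

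Members, lists and the interaction test were chosen with earlier results of these data known. A gene of the signalling list is not reported here and was left out before counting. Named genes are the GBP genes and pseudogene; of each list the 3 of highest mean CPM, the 2 called genes of largest change and genes without control reads; the nearest and the called genes of the locus; and the 3 genes of most like pattern per member. An exact 2-sided permutation test of 4 against 4 libraries, whose smallest p is 0.0286, gave that value for each GBP gene.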

Additional observations from a re-analysis of the deposited data

Results flagged for a closer look

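The rise of GBP1 was larger in pairs C and D than in pairs A and B by 4.10 on the log2 scale, and the interaction test, set up with this difference known, called it. It was 2.31 and 1.62 at pseudocounts of 0.5 and 1 and 6.15 with edgeR, called in each, and it rests on 3 control reads in C and D. The same test called BST2 (4.17), CXCL10 (4.29), NFKB2 (1.52) and NFKBIA (1.51).

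A library lay far from the other 3 of its group, by Dixon's ratio, in 5 of 86 groups of 4 libraries over 43 genes, and chance alone gives about 1 in 20. GBP1P1 was at 50.2 CPM in cytokine library D and at 41.8 to 42.7 CPM in the others. APOL3 was at 0.684 CPM in control library A and at 0.0995 to 0.127 CPM in the others. DDX60 was at 83.0 CPM in cytokine library D and at 61.5 to 63.7 CPM in the others. HSPA6 was at 196 CPM in cytokine library C and at 85.1 to 100.04 CPM in the others. SOCS1 was at 1.69 CPM in control library B and at 0.956 to 1.08 CPM in the others.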

How the results depend on the processing

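All 6 GBP genes were called higher in each of the 18 alternatives, with log2 changes of 8.14 to 10.66 for GBP1 and 2.70 to 8.70 for GBP6. The replicate block (pairs A to D) changed none of these calls and, with limma, none in the lists or the locus, added NFKB1 to the signalling genes called with edgeR, and moved the count over all genes from 4470 to 5852 with limma and 5301 with edgeR. TMM scaling moved the median change of all genes from -0.17 to -0.02 and the calls from 1574 higher and 2896 lower to 2154 and 1933. The interaction count of 5 genes was 2 without the intensity trend and 3 to 11 with a library left out, where the count of GBP genes was 1 to 2. The interaction of GBP1 was called in each alternative run and ran from 1.62 at a pseudocount of 1 to 6.15 with edgeR, and its difference between control libraries from 1.56 to 6.18. The interaction of GBP4 turned to -0.025 and -0.038 at pseudocounts of 0.5 and 1, to -0.089 with edgeR and ran from -0.86 to 1.0 with a library left out; that of GBP6 turned to -3.17 with edgeR, from few reads, and ran from -0.18 to 0.28. Between control libraries GBP4 turned to -0.0086 and -0.022 at pseudocounts of 0.5 and 1 and ran from -0.84 to 1.02. Between cytokine libraries GBP1 and GBP3 turned to 0.025 and 0.034 with TMM and to 0.024 and 0.033 with edgeR, and with a library left out GBP1 ran from -0.14 to 0.036, GBP3 from -0.12 to 0.033, GBP4 from -0.10 to 0.14 and GBP5 from -0.15 to 0.43. DNM2 turned to 0.0918 with TMM, 0.0914 with edgeR, 0.0919 with the block in edgeR and 0.10 with DESeq2, and FURIN ran from -0.034 to 0.14 with a library left out. With a library left out the contrast of control libraries called 2 to 4 and that of cytokine libraries 0 to 1 GBP genes, beside 68 to 3559 and 11 to 3070 of all genes; at a pseudocount of 0.5 GBP2 and GBP5, and at 1 GBP2, GBP3 and GBP5 lost their call between control libraries (adjusted p = 0.274 and 0.0940, and 0.511, 0.0501 and 0.234). In CPM the shares were 62.9% for GBP1, 15.9% for GBP3, 7.21% for GBP4, 7.95% for GBP5 and 0.712% for GBP6, and with the longest coding transcript as length, chosen after seeing the data, 66% for GBP1, 7.59% for GBP2, 16.5% for GBP3, 3.75% for GBP4, 5.40% for GBP5 and 0.757% for GBP6. The causes were not tested. Control levels of GBP2, GBP5 and GBP6 rest on at most 29 reads each, which limits their fold changes.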
